A study of Mus musculus with 18 samples.

Results

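The 4 Notch receptors (Notch1, Notch2, Notch3 and Notch4), the ligands Jag1, Jag2 and Dll1 and the target genes Hes1, Hey1 and Nrarp were followed across 3 mouse mammary tumor models and the normal gland. These 10 genes were chosen by symbol, from 55450 genes in the table, and all 10 were among the 19186 that passed the filter on low counts. RNA sequencing was carried out on 18 female C57Bl/6 mice, with 1 library per mouse. B1/P/Rbf tumors carried Brca1fl/fl, Trp53fl/fl and the TgK18GT121Tg/+ transgene (n = 5), B1/P tumors carried Brca1fl/fl and Trp53fl/fl without the transgene (n = 5), P/Rbf tumors carried Trp53fl/fl and TgK18GT121Tg/+ with Brca1 unaltered (n = 5), and normal glands came from wild type mice (n = 3). All 15 tumors therefore share the floxed Trp53 alleles. Recombination was started by adenovirus carrying Cre, injected into the ducts of adult glands, and the transgene uses the keratin 18 promoter to produce T121, a fragment of SV40 large T antigen that inactivates pRb, p107 and p130. Ages are not given in the labels, and whole tumors and whole glands were used, so fewer cells of a type and less RNA per cell cannot be told apart.

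Notch signaling passes between neighboring cells. A Delta or Jagged ligand on the surface of a cell binds a Notch receptor on the next, the receptor is cut by ADAM10 and then by gamma-secretase, and the freed intracellular domain enters the nucleus, where it joins RBPJ and a Mastermind protein to switch on targets such as the Hes and Hey repressors. In the mammary gland the pathway is known for its part in the luminal lineage, and in blood vessels for its part in endothelial and mural cells.

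Levels are given as CPM, library-size-adjusted counts scaled by trimmed mean of M values (TMM) factors. Differences are log2 fold changes from edgeR's quasi-likelihood test on all 18 libraries, and a gene is called when its Benjamini-Hochberg adjusted p, taken over all 19186 genes, is 0.05 or less. Library totals ran from 27661173 to 37794889 counts, with a median of 33802255. Trp53 was at 6.75 to 24.3 CPM in tumors and at 54.4 to 71.8 CPM in normal glands. Brca1 was at 8.13 to 28 CPM in B1/P, 21.1 to 45 CPM in B1/P/Rbf, 44.9 to 116 CPM in P/Rbf and 4.61 to 5.99 CPM in normal glands. These counts include exons outside a deleted part, so they check the labels only in part. The highest of the B1/P/Rbf values is that of tumor 3, in which loss of Brca1 expression was described as partial by RT-qPCR. The table has no row for T121. The glands were rich in other tissue: summed adipocyte markers reached 11200 to 15300 CPM and summed skeletal muscle markers 21800 to 42800 CPM, against at most 216 and 581 CPM in any tumor. The labels number the libraries from 1 to 18, and a split of these numbers into 2 sets, chosen for this re-analysis with earlier results known, served as an alternative term. Neither the labels nor the methods call the sets batches, and the methods describe all 18 samples as pooled for sequencing. Numbers 1 to 8 are every B1/P/Rbf tumor with B1/P tumors 1 to 3. Numbers 9 to 18 are the glands, every P/Rbf tumor and B1/P tumors 4 and 5. Only B1/P falls in both. With a term for the sets, 11 of 60 log2 fold changes of members changed sign, 0 of them called in either fit, and its values are given beside the results concerned.

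Dll1, Jag2 and Notch1 were lower in tumors of both T121 genotypes than in B1/P tumors, and Hes1 was higher in every tumor genotype than in normal gland. Jag1, Notch3 and Nrarp were called only against normal gland, and Notch2, Notch4 and Hey1 were called in none of the 6 comparisons. In B1/P/Rbf against B1/P, 3 of 10 members were called lower and 0 higher, where 9.29% of all genes tested were called lower and 7.36% higher. In P/Rbf against B1/P the same 3 members were called lower and 0 higher, where the shares of all genes were 10.8% and 8.43%. These comparisons share the B1/P tumors. Groups did not overlap for 2 members in the first (both lower, where 5.48% of all genes lay wholly lower, 5% wholly higher and 10.5% either way) and for 1 in the other (lower, where the shares were 5.11%, 3.74% and 8.86%). The median log2 fold change of the members was -0.67 and -0.60, against -0.06 and -0.05 over all genes tested.

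Upstream sequence is shown for Dll1 and Notch1, whose levels separated B1/P/Rbf from B1/P tumors without overlap, and for Nrarp, the only target gene with a window. The 250 bases before the start site come from the RefSeq promoter table (GRCm38.p6), which held 8 of 10 members in 9 windows. Each is written 5′ to 3′ on the strand of the gene, and capitals mark matches on either strand to any of 4 motifs: RBPJ (TGGGAA), E2F (TTCCCGC or TTGGCGC), the E-box CACGTG and the N-box CACNAG, the last being a Hes type of site. The table holds 2 Dll1 windows, and the one before the outer start site is shown because the other lies inside the annotated span of Dll1. The window shown is chr17:15376933-15377182 (minus strand, before the start site at 15376932) and lies within an exon of the noncoding gene A930024N18Rik on the other strand. The Notch1 window is chr2:26503823-26504072 (minus strand, before 26503822), inside the annotated span of Notch1. The Nrarp window is chr2:25180508-25180757 (plus strand, before 25180758).
Dll1: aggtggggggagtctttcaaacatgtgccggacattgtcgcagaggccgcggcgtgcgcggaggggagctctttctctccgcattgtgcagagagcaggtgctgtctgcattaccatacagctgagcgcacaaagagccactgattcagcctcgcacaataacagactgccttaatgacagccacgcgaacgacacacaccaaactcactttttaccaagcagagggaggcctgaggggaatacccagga
Notch1: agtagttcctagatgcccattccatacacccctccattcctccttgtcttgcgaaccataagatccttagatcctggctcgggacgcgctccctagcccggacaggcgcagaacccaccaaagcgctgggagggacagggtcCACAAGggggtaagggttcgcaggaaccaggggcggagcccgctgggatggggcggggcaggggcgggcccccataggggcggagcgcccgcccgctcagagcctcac
Nrarp: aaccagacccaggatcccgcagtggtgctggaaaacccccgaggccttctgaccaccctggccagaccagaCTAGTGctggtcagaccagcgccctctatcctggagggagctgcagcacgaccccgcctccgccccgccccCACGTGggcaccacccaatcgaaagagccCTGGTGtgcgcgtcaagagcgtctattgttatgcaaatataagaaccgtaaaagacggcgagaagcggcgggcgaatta

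TGGGAA was found in 0 of the 9 member windows and in 21.6% of all 32851 windows of that length. The Nrarp window held CACGTG 108 to 103 bases before the start, a motif in 6.0% of windows, and 2 N-boxes, CTAGTG at 179 to 174 and CTGGTG at 79 to 74 bases before it. The Notch1 window held the N-box CACAAG 108 to 103 bases before the start, and N-boxes were in 36.7% of windows. Both Dll1 windows held none of the 4 motifs. Of the windows not printed, that of Notch2 held the only E2F match among members, GCGGGAA at 114 to 108 bases before the start, a motif in 5.6% of all windows, and the N-box CTAGTG at 247 to 242. The Notch3 window held the N-boxes CACGAG at 204 to 199 and CTTGTG at 159 to 154.

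Dll1 (Delta-like 1, chromosome 17, 15367354 to 15376872, minus strand, GRCm38) encodes a ligand and showed the widest difference between tumor genotypes of the 10 members. The 5 B1/P tumors were at 261, 29.8, 276.5, 54.9 and 102 CPM. B1/P/Rbf tumors were at 3.69, 2.16, 3.86, 4.06 and 2.11 CPM, and P/Rbf tumors at 2.96, 4.98, 5.29, 2.13 and 1.43 CPM. Normal glands, at 12.4, 9.23 and 11.6 CPM, lay between them, and none of these ranges touched that of B1/P. Against B1/P, Dll1 was lower in B1/P/Rbf tumors at a log2 fold change of -5.51 (SE 0.61, 0.022 of the B1/P level, adjusted p = 7.61e-05), and in P/Rbf tumors at -5.43 (SE 0.60, adjusted p = 9e-05). With the term for the library sets these became -5.89 (adjusted p = 0.000125) and -4.54 (adjusted p = 0.000452). Leaving out each library in turn gave -5.77 to -5.14 and -5.69 to -5.06, with the call kept each time. B1/P tumors were above the glands by 3.71 (SE 0.69, adjusted p = 0.000598). With the set term that value was 2.83 (adjusted p = 0.00695). Both T121 genotypes were below the glands, at -1.80 (SE 0.57, adjusted p = 0.0201) in B1/P/Rbf and -1.72 (SE 0.57, adjusted p = 0.0252) in P/Rbf. With the set term the B1/P/Rbf value was -3.07 (adjusted p = 0.0262). The direction against the glands held under every setting tried, but both calls were lost without TMM scaling (adjusted p = 0.0514 for each) and under limma-voom (adjusted p = 0.245 and 0.339). For B1/P/Rbf against normal the call was also lost without normal gland 1 or 3 (highest adjusted p = 0.0662), and for P/Rbf against normal without P/Rbf tumor 1, 4 or 5 or any 1 of the 3 glands (highest adjusted p = 0.0807).

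**Figure D1:**
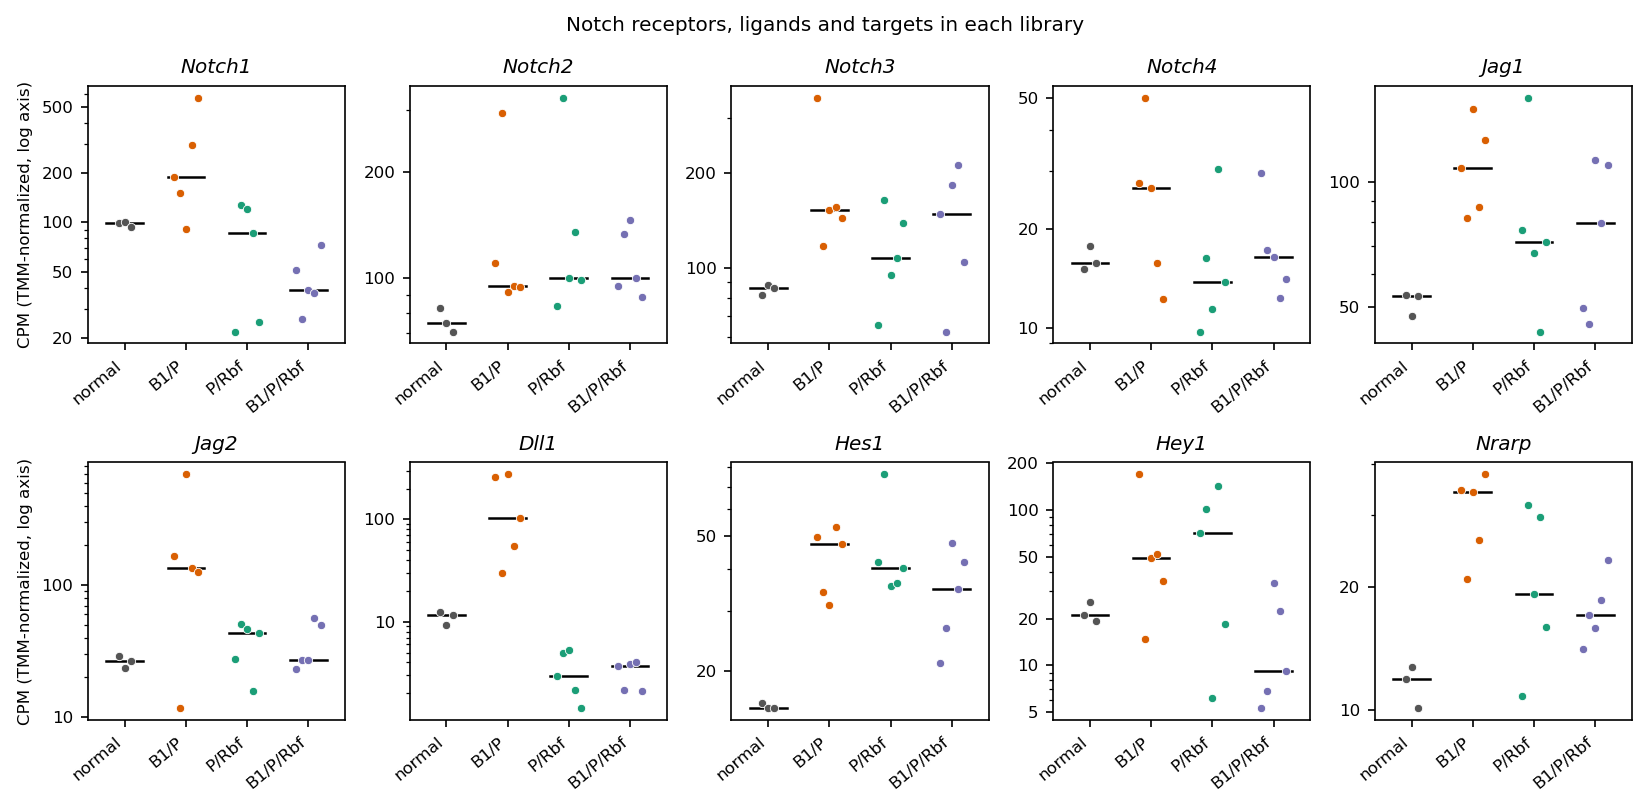
CPM of each member in every library on a log axis, by group, with a bar at the group median. Dll1 separates the B1/P tumors (29.8 to 276.5 CPM) from all other libraries (1.43 to 12.4 CPM), and Hes1 lies higher in all 15 tumors (21.1 to 76.3 CPM) than in the 3 glands (15.5 to 16.1 CPM).

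Jag2 (Jagged 2, chromosome 12, 112907819 to 112929776, minus strand) encodes a ligand of the Jagged type. B1/P tumors were at 167, 11.7, 694, 135.5 and 127 CPM. B1/P/Rbf tumors were at 23.1, 27.0, 27.2, 56.7 and 50.3 CPM, and P/Rbf tumors at 27.5, 50.9, 46.4, 15.85 and 43.1 CPM. Normal glands were at 28.9, 23.8 and 26.7 CPM. Of the B1/P tumors, 4 lay above every other library and tumor 2 lay below every other library, so the groups overlapped. The log2 fold change was -2.62 (SE 0.67, adjusted p = 0.0138) in B1/P/Rbf against B1/P, -2.63 (SE 0.67, adjusted p = 0.0127) in P/Rbf against B1/P and 3.10 (SE 0.85, adjusted p = 0.00948) in B1/P against normal. The calls against B1/P depended on tumor 3, without which the values were -1.58 (adjusted p = 0.055) and -1.59 (adjusted p = 0.0508). They were also lost under limma-voom (adjusted p = 0.113 and 0.0955) and when only the groups compared were fitted (adjusted p = 0.0521 and 0.0617). With the term for the library sets the values were -2.98 (adjusted p = 0.0146), -1.84 (adjusted p = 0.141) and, against normal, 2.31 (adjusted p = 0.0691). That term also turned the value in B1/P/Rbf against normal, which was not called, from 0.48 to -0.67 (adjusted p = 0.725). The value against normal was 2.06 without tumor 3, still called, and lost its call under limma-voom (2.30, adjusted p = 0.0577).

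Jag1 (Jagged 1, chromosome 2, 137081456 to 137116644, minus strand), the other Jagged ligand, differed less. It was at 81.9 to 149.9 CPM in B1/P (median 108), 45.5 to 113 CPM in B1/P/Rbf (median 79.75), 43.6 to 159 CPM in P/Rbf (median 71.8) and 47.6 to 53.5 CPM in normal glands. All 5 B1/P tumors were above the glands, by a log2 fold change of 1.10 (SE 0.39, adjusted p = 0.036). That call was lost without B1/P tumor 3 or 5 or any 1 of the 3 glands (adjusted p = 0.0594 to 0.104), with the term for the library sets (adjusted p = 0.11), without a filter (adjusted p = 0.0542) and under the stricter filter of log2 CPM (adjusted p = 0.0918). Without TMM scaling Jag1 was also called in B1/P/Rbf (0.996, adjusted p = 0.0404) and P/Rbf (0.961, adjusted p = 0.0476) against normal. Between tumor genotypes the intervals of the difference included 0, at -1.15 to 0.20 for B1/P/Rbf against B1/P and -1.08 to 0.28 for P/Rbf against B1/P.

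To compare ligands with each other, CPM was divided by the kilobases of annotated exon, and the endothelial ligand Dll4 was added. In B1/P the mean level per kb was 34.3 for Dll1 (SD 27.5), 32.6 for Jag2 (SD 38.4) and 19.0 for Jag1 (SD 4.84). Dll1 exceeded Jag1 in 3 of 5 B1/P tumors, and Jag2 exceeded Jag1 in 3 of 5. These levels were not tested against each other within tumors. The Jag2 mean includes 99.6 per kb in tumor 3, against 1.68 to 24.0 per kb in the other B1/P tumors. The ligand with the highest level per kb was Dll1 in 2 B1/P tumors, Jag2 in 2 and Jag1 in 1. Jag1 was the highest in 5 of 5 B1/P/Rbf tumors, 4 of 5 P/Rbf tumors and 3 of 3 glands, with Dll4 highest in the remaining P/Rbf tumor. Dll1 was at 0.753 per kb (SD 0.227) in B1/P/Rbf and 0.796 per kb (SD 0.406) in P/Rbf, below Jag1, Jag2 and Dll4 in all 10 of these tumors.

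**Figure D2:**
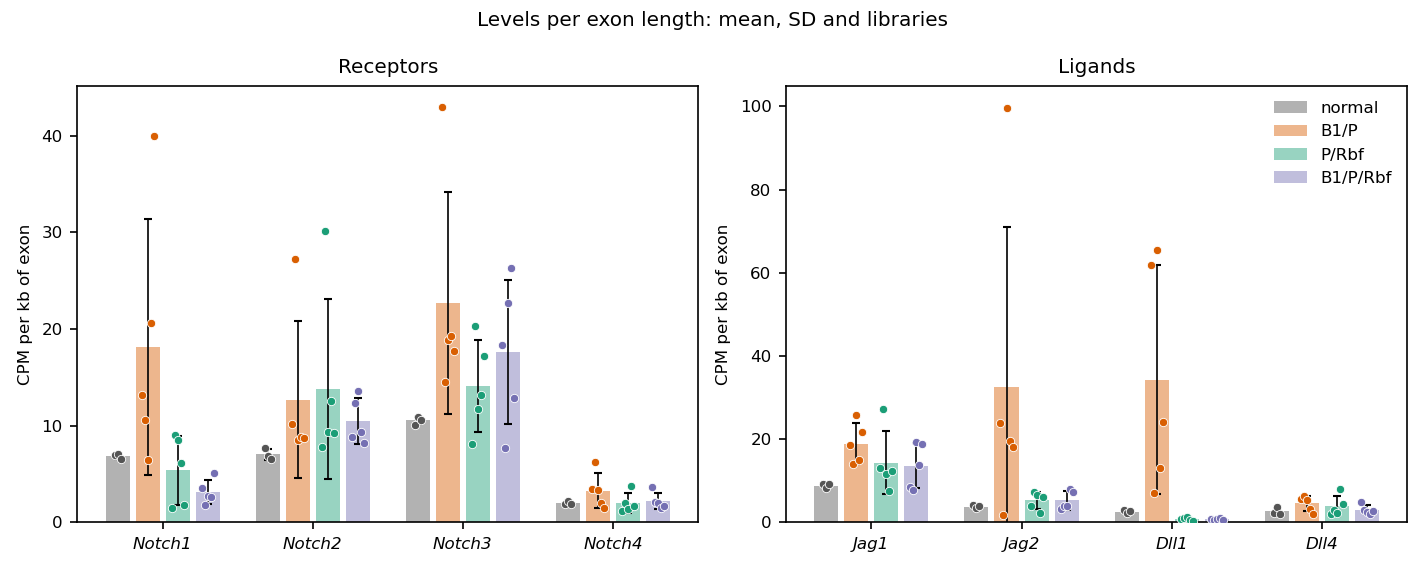
Mean CPM per kb of exon with SD and each library as a point, for receptors and for ligands (error bars are cut at 0). Dll1 and Jag2 exceed Jag1 on average in B1/P, but each in only 3 of 5 tumors, and the Jag2 mean includes 99.6 per kb in tumor 3. Jag1 is the highest of the 4 ligands on average in the other groups.

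Notch1 (chromosome 2, 26457903 to 26516663, minus strand) was the only receptor called between tumor genotypes. B1/P tumors were at 187, 151, 91.1, 294 and 569 CPM. B1/P/Rbf tumors were at 51.3, 25.85, 38.9, 37.6 and 72.6 CPM, below every B1/P tumor and every normal gland (98.5, 101 and 93.6 CPM). P/Rbf tumors were at 21.8, 128, 121, 86.8 and 25.0 CPM, so 2 of them lay above B1/P tumor 3 and below the other B1/P tumors. The log2 fold change was -2.51 (SE 0.54, 0.175 of the B1/P level, adjusted p = 0.00497) in B1/P/Rbf against B1/P and -1.76 (SE 0.52, 0.296 of the B1/P level, adjusted p = 0.0272) in P/Rbf against B1/P. With the term for the library sets these were -1.66 (adjusted p = 0.0413) and -2.50 (adjusted p = 0.00915). For P/Rbf against B1/P the call was lost without B1/P tumor 5 (-1.24, adjusted p = 0.0852), P/Rbf tumor 1 (-1.47, adjusted p = 0.0576) or P/Rbf tumor 5 (-1.53, adjusted p = 0.059), and when only these groups were fitted (adjusted p = 0.0956). Against the glands Notch1 was not called, at 1.41 (SE 0.62, adjusted p = 0.0899) in B1/P, -1.11 (SE 0.58, adjusted p = 0.142) in B1/P/Rbf and -0.35 (SE 0.58, adjusted p = 0.661) in P/Rbf. The B1/P value was called without TMM scaling (1.75, adjusted p = 0.0368), with the term for the library sets (2.14, adjusted p = 0.0212) and without B1/P tumor 3 (1.62, adjusted p = 0.0498). The B1/P/Rbf value was called when only these groups were fitted (-1.12, adjusted p = 0.0121) and changed sign with the term for the library sets (0.485, adjusted p = 0.72).

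Notch3 (chromosome 17, 32120820 to 32166852, minus strand), a receptor known from mural cells of vessels, was at 348, 117, 153, 156 and 144 CPM in B1/P. Levels among B1/P/Rbf tumors were 148, 62.6, 184, 213 and 104 CPM, and among P/Rbf tumors 65.9, 164, 95.1, 107 and 139 CPM. The 3 glands were at 81.8, 88.1 and 85.9 CPM. Every B1/P tumor was above the glands, at a log2 fold change of 1.11 (SE 0.41, adjusted p = 0.0453), and the other genotypes were not called by edgeR on all 18 libraries. The call was near the threshold: it was lost without B1/P tumor 1 (0.74, adjusted p = 0.121), B1/P tumor 4, B1/P/Rbf tumor 1, P/Rbf tumor 3, 4 or 5 or any 1 of the 3 glands (highest adjusted p = 0.127), and with the term for the library sets (0.81, adjusted p = 0.228). It was also lost under limma-voom (adjusted p = 0.0588), without a filter (adjusted p = 0.0659) and under the stricter filter of log2 CPM (adjusted p = 0.103). Without TMM scaling B1/P/Rbf was called as well (1.097, adjusted p = 0.0368). In B1/P/Rbf against P/Rbf, which was not called, the value changed sign to -0.143 with the term for the library sets (adjusted p = 0.943).

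Notch2 (chromosome 3, 98013527 to 98150361, plus strand) was above the glands (70.65 to 82.4 CPM) in all 15 tumors, but was not called in the fit of all libraries. It was at 91.5 to 293.5 CPM in B1/P, 83.55 to 324 CPM in P/Rbf and 88.5 to 146.5 CPM in B1/P/Rbf, with the top values of B1/P and P/Rbf each from tumor 2. The log2 fold changes against normal were 0.85 in B1/P (SE 0.45, adjusted p = 0.157), 0.57 in B1/P/Rbf (SE 0.45, adjusted p = 0.334) and 0.97 in P/Rbf (SE 0.46, adjusted p = 0.103). Groups that did not overlap in this direction were found for 18.7%, 23.1% and 20% of all genes in the same order. Other settings called it against normal: without TMM scaling in B1/P (1.197, adjusted p = 0.0413) and P/Rbf (1.23, adjusted p = 0.0358), with only the groups compared in B1/P/Rbf (0.56, adjusted p = 0.0451), and in P/Rbf without B1/P tumor 2 (0.97, adjusted p = 0.0451) or P/Rbf tumor 1 (1.21, adjusted p = 0.0499). With 1 library left out, the lowest values against normal were 0.464 in P/Rbf and 0.367 in B1/P, neither called. With the term for the library sets the value became -0.228 in B1/P/Rbf (adjusted p = 0.853) and 0.321 in B1/P (adjusted p = 0.685), so its sign in B1/P/Rbf depended on that term.

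Notch4 (chromosome 17, 34564268 to 34588503, plus strand), the receptor of vessel endothelium, was at 12.2 to 50.2 CPM in B1/P, 12.35 to 29.7 CPM in B1/P/Rbf, 9.72 to 30.5 CPM in P/Rbf and 15.1 to 17.7 CPM in glands, and was not called in any comparison. With the term for the library sets its log2 fold change turned from 0.15 to -1.165 in B1/P/Rbf against normal (adjusted p = 0.185), from 0.71 to -0.21 in B1/P against normal (adjusted p = 0.77), from -0.69 to 0.22 in P/Rbf against B1/P (adjusted p = 0.784) and from 0.13 to -1.18 in B1/P/Rbf against P/Rbf (adjusted p = 0.385), so these signs depended on it. It followed the summed level of 10 endothelial markers, which ran from 90.3 to 399 CPM in tumors. Over the 15 tumors, on a log2 scale, Pearson's r was 0.92 (permutation p = 1e-05, the smallest that 100000 permutations can give, adjusted p = 2e-05) and Spearman's rho was 0.93 (permutation p = 2e-05, adjusted p = 4e-05). Without the 2 tumors farthest from the median r was 0.94, and within the library sets it was 0.86 (8 tumors) and 0.98 (7 tumors). With genotype means removed and tumors permuted within genotype, an alternative added after the data were seen, r was 0.91 (permutation p = 4e-05, adjusted p = 8e-05). The glands had 514 to 568 CPM of endothelial markers, above every tumor, with Notch4 at 15.1 to 17.7 CPM. Notch3 and 7 mural markers were the other of the 2 relations computed, and r was 0.64 (permutation p = 0.0093, adjusted p = 0.0093), rho 0.65 (permutation p = 0.011, adjusted p = 0.011), r without the 2 farthest tumors 0.61, and r within the sets 0.55 and 0.74. These p-values include the difference between genotypes, and with genotype means removed r was 0.55 and no longer past the threshold (within-genotype permutation p = 0.064, adjusted p = 0.064). Mural markers were at 344 to 710 CPM in B1/P, 133 to 248 CPM in P/Rbf and 128 to 414 CPM in B1/P/Rbf, and 5 of the 7 were called lower in B1/P/Rbf, and 7 in P/Rbf, against B1/P tumors.

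Per kb of exon, Notch3 was the highest receptor in 4 of 5 B1/P/Rbf tumors, 4 of 5 P/Rbf tumors and 3 of 3 glands, and Notch2 in the remaining tumor of each genotype. The length counts every annotated exon of a gene, 14.23 kb for Notch1 and 8.089 kb for Notch3. In CPM, Notch1 was above Notch3 in each gland, so the order of these 2 genes in glands rests on the lengths used. In B1/P, Notch1 was the highest in 2 tumors, Notch3 in 2 and Notch2 in 1. Their means were 18.2 (SD 13.3), 22.7 (SD 11.5) and 12.7 (SD 8.15) per kb. Notch3 exceeded Notch2 in 4 of 5 B1/P tumors, and Notch1 exceeded Notch2 in 3 and Notch3 in 2. These levels were not tested against each other within tumors. Notch4 was below Notch2 in all 18 libraries.

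**Figure D3:**
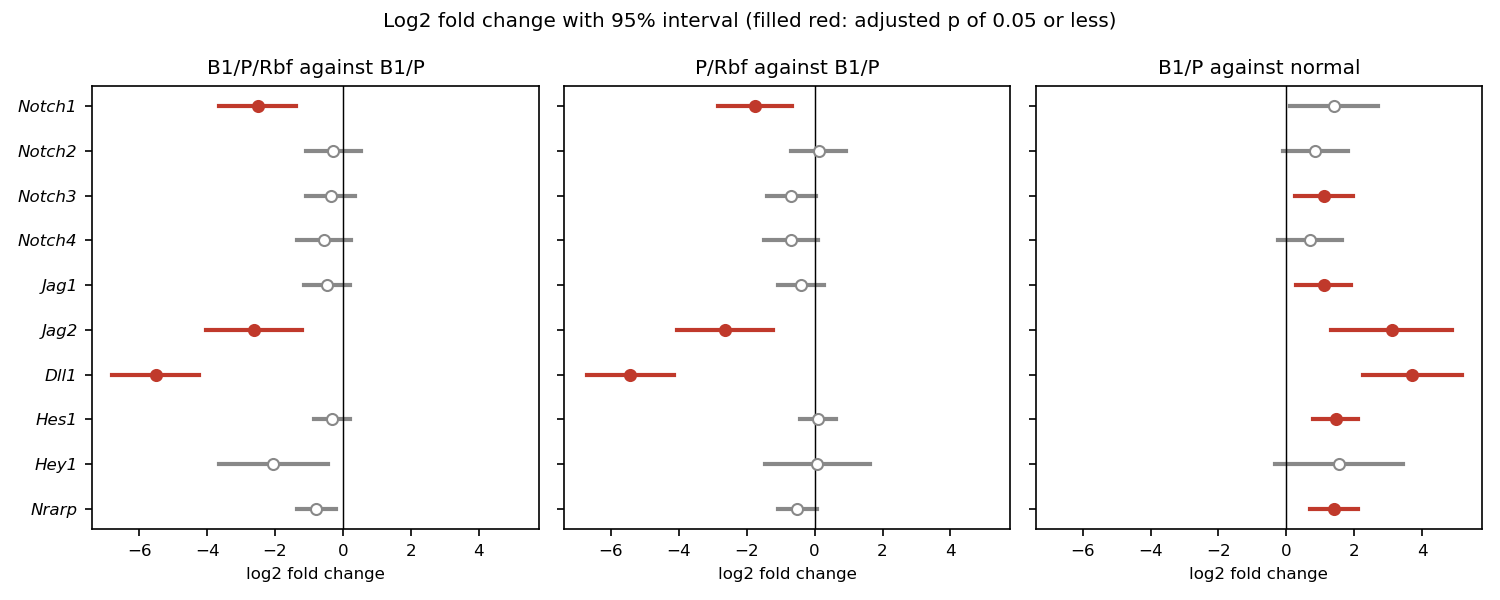
Log2 fold change of each member with its 95% interval in 3 comparisons, filled red where called. Dll1, Jag2 and Notch1 lie below 0 in both comparisons with B1/P, and 6 members lie above 0 and are called in B1/P against normal.

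Cell type markers also differed between the tumor genotypes. The summed level of 8 basal and myoepithelial markers was 402 to 2250 CPM in B1/P, 65 to 352 CPM in B1/P/Rbf, 87.2 to 1460 CPM in P/Rbf and 335 to 481 CPM in glands. Of the 8, 2 were called lower in each T121 genotype than in B1/P, with a median log2 fold change of -2.05 and -1.33. The summed level of 8 hormone-sensing luminal markers ran the other way, at 59.7 to 499 CPM in B1/P, 256 to 1650 CPM in P/Rbf and 1230 to 2530 CPM in B1/P/Rbf. General epithelial markers were called higher against B1/P for 2 of 7 in B1/P/Rbf and 5 of 7 in P/Rbf (medians 1.67 and 2.73), and fibroblast markers lower for 1 and 3 of 8 (medians -1.34 and -1.04). Luminal progenitor markers were called lower for 0 and 1 of 5 (medians -0.85 and -1.3), and macrophage markers for 0 and 2 of 5 (medians -0.58 and -1.13). Skeletal muscle markers were called lower for 3 and 4 of 5, but their sum was 1.42 to 9.14 CPM in B1/P tumors 1 to 4 and 581 CPM in B1/P tumor 5, against 4.51 to 22.5 CPM in B1/P/Rbf and 0.92 to 3.88 CPM in P/Rbf, so the size of the difference rests on that 1 tumor. Among B1/P tumors, the lowest Dll1, in tumor 2, came with the lowest basal sum (402 CPM), and the highest Dll1, in tumor 3, with the highest (2250 CPM). The order did not hold between them: tumor 5 had a sum of 2086 CPM and Dll1 at 102 CPM, and tumor 1 had 1525 CPM and Dll1 at 261 CPM. P/Rbf tumors 2 and 3 had basal sums of 766 and 1460 CPM, above B1/P tumor 2, and Dll1 at 4.98 and 5.29 CPM against its 29.8 CPM. These were the highest Dll1 values of P/Rbf, the others being 2.96, 2.13 and 1.43 CPM. Notch1 was at 128 and 121 CPM in P/Rbf tumors 2 and 3, the highest of P/Rbf. In the other P/Rbf tumors, whose basal sums were 87.2 to 195 CPM, Notch1 was at 21.8 to 86.8 CPM. In B1/P, Notch1 was lowest (91.1 CPM) in tumor 3, which had the highest basal sum. It was at 151 CPM in tumor 2, which had the lowest sum, and highest (569 CPM) in tumor 5, with a sum of 2086 CPM. Jag2 was not set beside these markers, and beyond the values given, the part of cell type in the Dll1, Jag2 and Notch1 results was not tested.

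**Figure D4:**
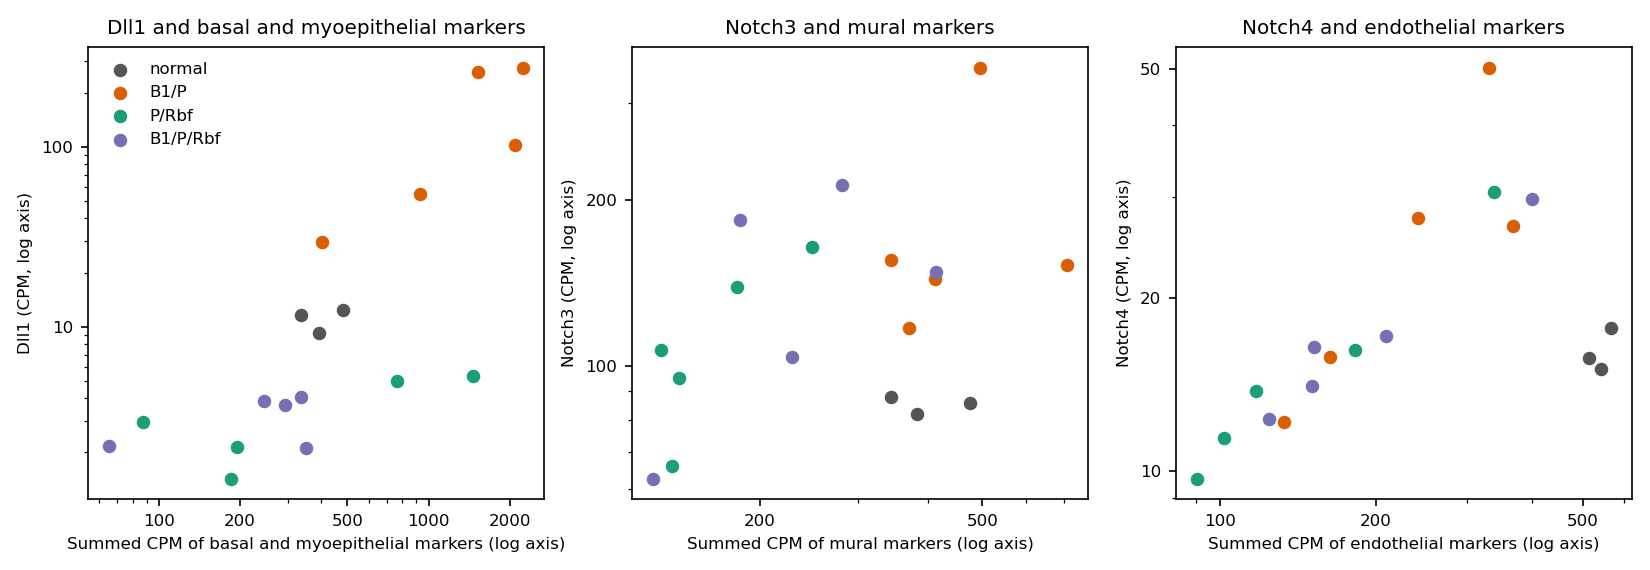
Dll1, Notch3 and Notch4 against the summed CPM of basal and myoepithelial, mural and endothelial markers in each library, on log axes. Notch4 rises with endothelial markers over the tumors. The P/Rbf tumors with 766 and 1460 CPM of basal markers have Dll1 at 4.98 and 5.29 CPM, the highest of P/Rbf and below every B1/P tumor.

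None of the 3 target genes was called between tumor genotypes by edgeR on all 18 libraries. Hes1 (chromosome 16, 30064384 to 30067796, plus strand), a basic helix-loop-helix repressor, was at 49.8, 34.2, 31.3, 53.1 and 47.3 CPM in B1/P. Levels among B1/P/Rbf tumors were 21.1, 26.8, 47.7, 34.8 and 42.1 CPM, and among P/Rbf tumors 41.9, 76.3, 35.6, 36.3 and 40.3 CPM. The 3 glands were at 16.1, 15.5 and 15.5 CPM. Every tumor exceeded every gland. The log2 fold change against normal was 1.46 in B1/P (SE 0.31, adjusted p = 0.00196), 1.13 in B1/P/Rbf (SE 0.31, adjusted p = 0.00854) and 1.55 in P/Rbf (SE 0.32, adjusted p = 0.001), and these 3 calls held in every setting that tested the gene. Between B1/P/Rbf and B1/P the difference was -0.32 (95% interval -0.86 to 0.22), and between P/Rbf and B1/P it was 0.10 (95% interval -0.44 to 0.64). With the term for the library sets the P/Rbf value became -0.123 (adjusted p = 0.851), so its sign depended on that term.

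Nrarp (chromosome 2, 25180758 to 25183339, plus strand), which encodes an ankyrin repeat protein that dampens the Notch complex, was at 34.55, 20.9, 34.2, 26.0 and 37.7 CPM in B1/P. Levels among B1/P/Rbf tumors were 14.1, 17.05, 15.9, 18.5 and 23.3 CPM, and among P/Rbf tumors 10.8, 31.6, 19.3, 29.7 and 16.0 CPM. The 3 glands were at 11.9, 12.8 and 10.1 CPM. It was higher than in glands by 1.40 in B1/P (SE 0.33, adjusted p = 0.0038) and 0.89 in P/Rbf (SE 0.32, adjusted p = 0.0395), and stood at 0.61 in B1/P/Rbf (SE 0.32, adjusted p = 0.144). The P/Rbf call was lost without P/Rbf tumor 2 (0.71, adjusted p = 0.0904), P/Rbf tumor 4 (0.74, adjusted p = 0.0821) or any 1 of the 3 glands (0.82 to 1.05, highest adjusted p = 0.136), without a filter (adjusted p = 0.0681) and when only these groups were fitted (adjusted p = 0.0859). The B1/P/Rbf value was called under limma-voom (0.95, adjusted p = 0.0479) and without TMM scaling (0.985, adjusted p = 0.0267). In B1/P/Rbf, 4 of 5 tumors lay below every B1/P tumor, at -0.79 (SE 0.27, adjusted p = 0.0577), a difference that was called by DESeq2 (adjusted p = 0.03) and by edgeR without B1/P tumor 2 (adjusted p = 0.0342), P/Rbf tumor 1 (adjusted p = 0.0396) or P/Rbf tumor 2 (adjusted p = 0.0462).

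Hey1 (chromosome 3, 8663359 to 8667256, minus strand), a repressor related to the Hes family, varied widely within groups. It was at 170.3, 14.7, 49.2, 52.3 and 35.0 CPM in B1/P. Levels among B1/P/Rbf tumors were 5.30, 6.83, 33.7, 22.55 and 9.19 CPM, and among P/Rbf tumors 71.7, 101, 6.20, 143 and 18.4 CPM. The 3 glands were at 21.1, 25.6 and 19.2 CPM. All 4 groups overlapped. The log2 fold change was -2.05 in B1/P/Rbf against B1/P (SE 0.76, adjusted p = 0.0726, called by DESeq2 at an adjusted p of 0.0217 and by edgeR without B1/P tumor 2 at 0.0442 or P/Rbf tumor 3 at 0.0431, but -1.287 without B1/P tumor 1 at 0.243) and -2.13 in B1/P/Rbf against P/Rbf (SE 0.76, adjusted p = 0.177).

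The question of what Brca1 loss adds to T121 and Trp53 loss is addressed by B1/P/Rbf against P/Rbf. By edgeR 0 of 10 members were called and 1 (Hey1) had an unadjusted p under 0.05, where 0.281% of all genes were called, 0.219% higher and 0.0625% lower. Every other tool and setting also called 0 members, where DESeq2 called 5.35% of all genes and the other settings that left out no single library called 0.00615% to 0.391%. Groups did not overlap for 0 of 10 members, where they did not for 3.02% of all genes (1.71% higher and 1.31% lower). The 95% intervals were -1.15 to 0.99 for Dll1, -1.33 to 1.34 for Jag2 and -1.84 to 0.32 for Notch1. With the term for the library sets the values moved from -0.08 to -1.35 for Dll1 (adjusted p = 0.508), from 0.01 to -1.14 for Jag2 (adjusted p = 0.68) and from -0.76 to 0.84 for Notch1 (adjusted p = 0.661), so the signs of the last 2 depended on it. Without B1/P/Rbf tumor 3, in which loss of Brca1 was partial, 0 members were called as well. These genotypes fall on different sides of the split in library numbers, so that term separates them only through the B1/P tumors.

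Each tumor model against normal glands gave the following counts. In B1/P, 6 of 10 members were called higher (Notch3, Jag1, Jag2, Dll1, Hes1 and Nrarp) and 0 lower, where 16.8% of all genes were called higher and 33.8% in either direction, and the median of the members was 1.40 against 0.12 over all genes. In P/Rbf, 2 were higher (Hes1 and Nrarp) and 1 lower (Dll1), where 37.7% were called, with medians of 0.59 and 0.05. In B1/P/Rbf, 1 was higher (Hes1) and 1 lower (Dll1), where 37% were called, with medians of 0.53 and 0.05. Groups did not overlap for 6 members in B1/P (all higher, of 41.4% of all genes either way, 18.7% higher and 22.7% lower), for 3 in P/Rbf (2 higher, of 46.5%, 20% and 26.5%) and for 5 in B1/P/Rbf (3 higher, of 50.5%, 23.1% and 27.4%). The shares of all genes called higher and lower were 16.8% and 16.9% in B1/P, 17.4% and 20.3% in P/Rbf and 17.1% and 20% in B1/P/Rbf. Without TMM scaling the median of all genes shifted by 0.35, 0.27 and 0.37 in these comparisons. The adipose and muscle tissue of the glands comes with each of these differences, and its part in them was not tested.

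The wider pathway list held 50 further genes, of which 46 were tested. Dll3, Hes2, Hes3 and Hes5 were too low. Against B1/P tumors, 4 of the 46 rose and 4 fell in B1/P/Rbf, and 5 rose and 6 fell in P/Rbf, where 16.7% and 19.2% of all genes were called in either direction, so these counts are near the background. Adam10, the protease of the first receptor cut after ligand binding, was at 133.5 to 316 CPM in B1/P, 862 to 1518 CPM in B1/P/Rbf, 794 to 1751 CPM in P/Rbf and 199.5 to 219.7 CPM in glands. The T121 tumors did not overlap either other group, with a log2 fold change against B1/P of 2.34 (SE 0.28, adjusted p = 0.000132) and 2.54 (SE 0.28, adjusted p = 9e-05).

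Among the other genes of that list, Dlk2, a noncanonical ligand, was lower by -6.68 (SE 1.29, adjusted p = 0.00271) and -6.57 (SE 1.28, adjusted p = 0.00302) than in B1/P. These values rest on low counts outside B1/P (at most 11 in any T121 tumor), and B1/P itself ran from 0.118 to 41.7 CPM. Leaving out each library in turn gave -7.57 to -5.09 and -7.19 to -4.98, with the call kept each time. Neurl1a, a ubiquitin ligase that acts on ligands, was higher than in B1/P by 1.96 (SE 0.55, adjusted p = 0.022) and 1.68 (SE 0.55, adjusted p = 0.0397), and Dtx1, a Notch-binding ubiquitin ligase, was lower by -2.74 (SE 0.88, adjusted p = 0.0409) and -2.69 (SE 0.88, adjusted p = 0.0408), with at most 167 counts in any tumor. Both calls of each gene were lost in several settings, Dtx1 without B1/P tumor 3 at -1.94 (adjusted p = 0.131) and -1.89 (adjusted p = 0.13), and Neurl1a with the term for the library sets at adjusted p = 0.0581 and 0.228. Maml2, a Mastermind coactivator, was lower in P/Rbf than in B1/P by -2.07 (SE 0.39, adjusted p = 0.00239), at 8.45 to 14.6 CPM against 26.5 to 69.4 CPM. In B1/P/Rbf, Maml1 and Fbxw7 were lower (-0.84 and -0.79, adjusted p = 0.0138 and 0.0263) and Numb, an inhibitor of Notch, was higher (0.64, adjusted p = 0.0308). In P/Rbf, Hey2 (-2.95, adjusted p = 0.0216), Heyl (-1.05, adjusted p = 0.0457) and Poglut1 (-1.10, adjusted p = 0.0312) were lower, and Aph1c (1.40, adjusted p = 0.00736) and Neurl1b (1.27, adjusted p = 0.0428) were higher. Without B1/P tumor 5 the Hey2 value was -2.03 (adjusted p = 0.0742). Of the 18 fits with a library left out, the call was lost in 13 for Heyl, 12 for Neurl1b, 6 for Poglut1, 6 for Numb, 5 for Fbxw7 and 2 for Hey2, and in 0 for Maml1, Maml2 and Aph1c. Under the other settings it was lost in 4, 5, 2, 3, 3 and 2 for the first 6 of these genes, and in 1 each for Maml1 and Aph1c.

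In B1/P/Rbf against P/Rbf 0 of the 46 pathway genes were called by edgeR, 6 had an unadjusted p under 0.05, and DESeq2 called 2, Aph1c and Maml2, a share near the 5.35% that it called of all genes. Against normal glands, 12 rose and 5 fell in B1/P/Rbf, 12 and 5 in B1/P, and 12 and 4 in P/Rbf. In either direction these counts are near the 37%, 33.8% and 37.7% of all genes called. More of them rose than fell, where 17.1%, 16.8% and 17.4% of all genes were called higher and 20%, 16.9% and 20.3% lower. The DNA-binding partner Rbpj was higher in all 3 models, by 1.49 (SE 0.33, adjusted p = 0.00197) in B1/P/Rbf, 1.46 (SE 0.33, adjusted p = 0.00257) in B1/P and 0.97 (SE 0.32, adjusted p = 0.0244) in P/Rbf. The P/Rbf call was lost without any 1 of the 3 glands (adjusted p = 0.0534 to 0.0848), under limma-voom (adjusted p = 0.0535) and under the stricter filter of log2 CPM (adjusted p = 0.186), and the B1/P/Rbf call with the term for the library sets (1.12, adjusted p = 0.121). The corepressors Spen and Ctbp2 were higher in all 3 models as well, Spen by 1.14, 1.41 and 1.42 in that order. Mfng, a Fringe enzyme that adds sugars to the receptors, was lower by -4.07, -3.65 and -3.93 (adjusted p of 1.15e-05 or less in each), at 2.13 to 9.69 CPM in tumors against 73.0 to 87.3 CPM in glands. Dtx1 was lower by -6.06, -3.32 and -6.01. With each library left out in turn it was at -6.27 to -5.85, -4.12 to -3.02 and -7.26 to -5.71 in that order, called each time. Lymphocyte markers, a cell type that tumors held little of, were at 369 to 510 CPM in the glands and at 1.75 to 31.1 CPM in tumors, and their part in the Mfng and Dtx1 values was not tested.

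**Figure D5:**
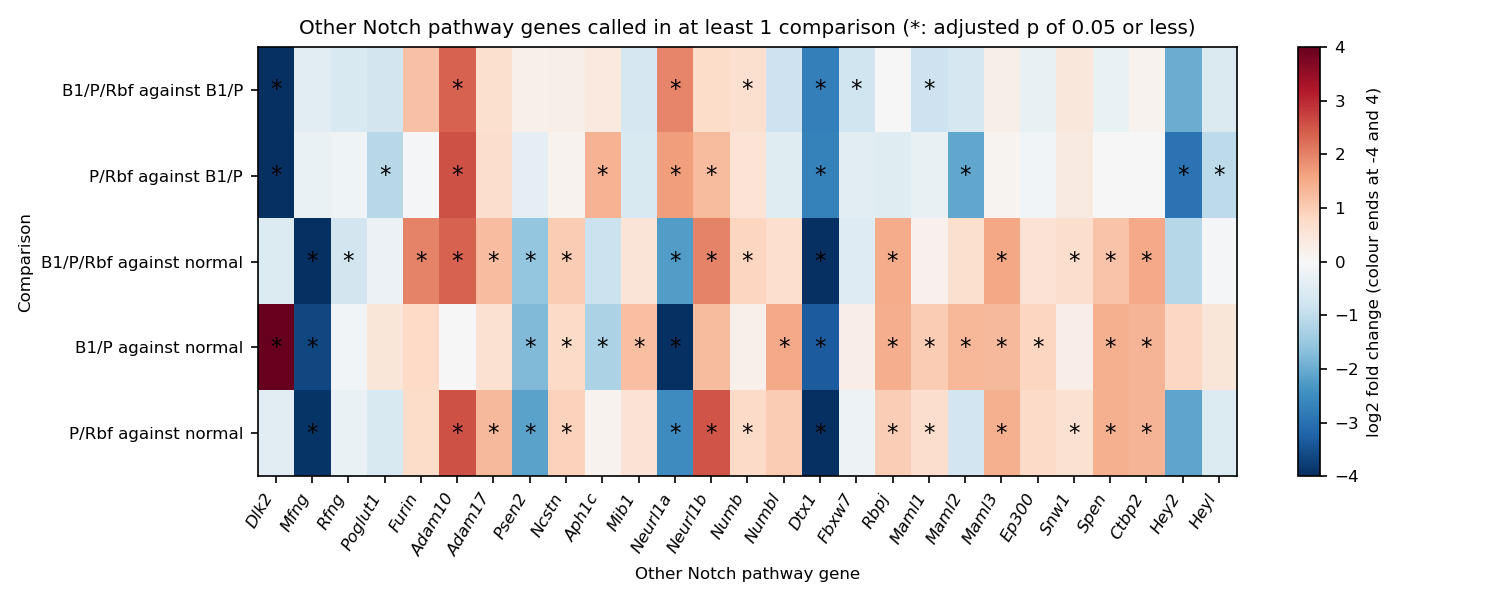
Log2 fold change of pathway genes called at least once, by comparison, with colors ending at -4 and 4 and an asterisk where called; B1/P/Rbf against P/Rbf had no call and is left out. Adam10 is higher in both T121 genotypes against B1/P (2.34 and 2.54) and Mfng lower in every tumor model against normal gland (-3.65 to -4.07).

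For each member the genes with the most similar pattern over the 15 tumors were found by Pearson's r of log2 CPM, which is a description over tumors that share genotype and library set. Notch4 was closest to Cd93, Adgrl4 and Cdh5 (r of 0.95, 0.94 and 0.94), all genes of endothelium. Dll1 was closest to Gm18409 and Adcy8 (0.97 and 0.97), Jag2 to Lzts1, Gm35333 and Mst1 (0.95, 0.91 and 0.90), Notch1 to Muc15, Calml3 and Rftn2 (0.91, 0.91 and 0.90) and Nrarp to Wipf3, Retsat and Ndrg3 (0.92, 0.91 and 0.88). Hey1, Notch2, Jag1, Notch3 and Hes1 had lower best values, of 0.88, 0.85, 0.85, 0.82 and 0.81. No member was among the 3 closest genes of another.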

How the data were processed

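The authors extracted RNA from tumors and glands, made stranded poly(A) libraries, sequenced them paired-end and estimated gene counts with RSEM 1.3.0. The deposited values are these expected counts, of which 5.61% were not whole, and they were rounded to whole numbers here. The study's methods and labels name human as well as mouse builds, but all 55450 identifiers and symbols matched mouse GENCODE M21 (GRCm38), which was used for positions and exon lengths. Whether counting used strand is not given in the sources used here. Library totals were 27661173 to 37794889 counts.

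Genes were kept by filterByExpr with a minimum count of 10, scaled by TMM and tested with edgeR 4.0.16 (quasi-likelihood, group as the only term, all 18 libraries, Benjamini-Hochberg over 19186 genes) in R 4.3.3 with limma 3.58.1. DESeq2 1.42.0 was an alternative, as were limma-voom after quantile scaling, unscaled library sizes, other filters, fewer groups, a term for library numbers 1 to 8 against 9 to 18 (a split made for this re-analysis) and each library left out. The standard error is the fold change over the square root of F. Log2 CPM for similarity used a prior count of 2. In simulated B1/P/Rbf against B1/P data on 19186 genes, 100 genes were changed 2-fold and 100 were changed 4-fold. Of these, 6% and 46% were called. In the real comparison 3195 genes were called, so the adjusted p was stricter in the simulation and these shares may be too low for the real test.

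Each library is from a separate mouse, and replicate numbers only name samples. No replicates were near-identical (lowest chi-square per degree of freedom 25). The 10 members were named throughout, with the pathway genes called at least once (those with the largest changes first), the 3 genes most like each member, and the targeted and marker genes. Dll4 and the Adam10 neighbors aside, no others were singled out. Some genes that this rule names are not reported here, though counts over the lists include them. The members and lists were chosen with earlier results of these data known.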

Additional observations from a re-analysis of the deposited data

Results flagged for a closer look

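In groups of 5 tumors, 8 of 30 values checked stood apart from the rest of their group by Dixon's test on CPM, each as the highest value. The rate of about 1 in 20 that chance gives holds for normally distributed values. CPM was not put on a log scale for this test, so the count cannot be set against that rate. Notch2 was at 294 CPM in B1/P tumor 2 and at 324 CPM in P/Rbf tumor 2, and Jag1 and Hes1 were at 159 and 76.3 CPM in that same P/Rbf tumor. Notch3 and Hey1 were at 348 and 170 CPM in B1/P tumor 1. Jag2 was at 694 CPM in B1/P tumor 3. Notch4 was at 29.7 CPM in B1/P/Rbf tumor 1, which had the highest endothelial marker sum of any tumor (399 CPM). P/Rbf tumor 2 held the highest value of its group in 7 of 10 members and the lowest hormone-sensing marker sum of its group (256 CPM). B1/P tumor 2 held the lowest value of its group in 6 of 10 members and the highest in 2. Its fibroblast and macrophage marker sums (12760 and 617 CPM) were the highest of B1/P, and their part in its values was not tested.

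The log2 fold changes of Dll1 and Notch1 against normal gland had opposite signs in B1/P and in the T121 genotypes. The difference itself was tested as the contrast between tumor genotypes in edgeR. For Dll1 it was -5.51 in B1/P/Rbf and -5.43 in P/Rbf, and for Notch1 it was -2.51 and -1.76, all called. Dll1 was called against normal gland in each genotype, and Notch1 in none of them, and with the term for the library sets the Notch1 value in B1/P/Rbf was 0.485, the sign of B1/P.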

How the results depend on the processing

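Of 1464 values of single members under other settings, 1390 kept their direction or call status, 53 lost a call, 21 gained one and 0 reversed a called direction. Under the stricter filter (a log2 CPM of 6 or more in 6 libraries), which tests 4 members, the members called numbered 1 in B1/P/Rbf and 1 in P/Rbf against B1/P (3 and 3 in the report), and 0 in each tumor genotype against normal (2 in B1/P/Rbf, 6 in B1/P and 3 in P/Rbf), and the pathway genes called numbered 3, 1, 8, 5 and 5 in the same order (8, 11, 17, 17 and 16), where 19.5%, 19%, 38.7%, 35.2% and 36.7% of all genes that passed it were called. DESeq2 called 5 members in B1/P/Rbf against B1/P (23% of all genes) and 2 pathway genes in B1/P/Rbf against P/Rbf (5.35%). Fitting only the groups compared gave 1 member and 2 pathway genes in P/Rbf against B1/P (9.3% of all genes) and 4 members in B1/P/Rbf against normal (48.8%), and library sizes without TMM also gave 4 there (41.7%). Without a filter and with the term for the library sets, 5 and 5 pathway genes were called in B1/P/Rbf against B1/P (8.51% and 12.4% of all genes), and that term gave 10 in B1/P/Rbf against normal (20.2%). limma-voom gave 6 pathway genes in P/Rbf against B1/P (16.5%). The cause was not tested, apart from the fewer genes tested under the filter. With each library left out, members called ranged from 2 to 5 in B1/P/Rbf against B1/P, 2 to 3 in P/Rbf against B1/P, 0 to 0 in B1/P/Rbf against P/Rbf, and, against normal, 1 to 2 in B1/P/Rbf, 4 to 6 in B1/P and 1 to 4 in P/Rbf. Pathway genes ranged from 4 to 11, 6 to 12, 0 to 1, 15 to 19, 14 to 19 and 12 to 20 in that order. Dll1 in both comparisons with B1/P and Hes1 in all 3 comparisons with normal gland kept their calls in every setting that tested them. No paired analysis was possible because the labels give no number that pairs tumors across genotypes. With 5 tumors a group, a member that was not called may still differ. Changes near 2-fold were rarely called in simulated data, but those data held far fewer changed genes than were called here.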

Other observations

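Genes around Adam10 (chromosome 9, 70678997 to 70780229, plus strand, GRCm38) were examined after its values were seen. Of 12 annotated genes within 200 kb, 6 were tested, Adam10 included. Mindy2, which lies before it on the other strand (70599014 to 70657174) and encodes a deubiquitinase, was higher in both T121 genotypes than in B1/P by edgeR, at log2 fold changes of 1.39 (SE 0.26, adjusted p = 0.00228) and 1.54 (SE 0.26, adjusted p = 0.00127). It was at 101 to 163 CPM in B1/P/Rbf and 80.3 to 184 CPM in P/Rbf against 25.8 to 67.2 CPM in B1/P. Gm10642, which overlaps the start of Mindy2 and was low, was higher by 1.57 (adjusted p = 0.0277) and 1.78 (adjusted p = 0.014). Rnf111, Sltm and Lipc were not called, with log2 fold changes of 0.24 and 0.20, 0.35 and 0.32, and 2.20 and 1.14.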
